A study of Mus musculus with 9 samples.

Results

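Whole eyeballs of mice given scopolamine to induce dry eye were compared with eyeballs of mice that were not injected. The comparison was taken from the sample titles and used 6 of the 9 libraries of the series, 3 labelled DES (scopolamine) and 3 labelled CON (not injected). All mice were female, wild-type (WT) BALB/C, an albino inbred strain. They were 6 weeks old at the start, were treated for 2 weeks and are labelled postnatal day 56. DES mice received scopolamine into the peritoneal cavity, CON mice received no injection, and both groups were given water. The other 3 libraries came from injected mice fed 300 mg/kg of Tetraselmis chuii. They entered the gene filter, the library scaling and the principal components. In the fit they added to the estimate of spread and, where a covariate was used, to its slope. No injected group without the drug was described, so drug and injection cannot be told apart, and the labels used here state no dose of scopolamine. The labels name 15 mice in 3 groups and do not say that each library came from 1 mouse, so tests measure the spread between libraries, which may in part be technical.

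Scopolamine blocks muscarinic acetylcholine receptors. Parasympathetic nerves use these receptors to drive secretion by the lacrimal gland and conjunctival goblet cells, and also to constrict the pupil through the iris sphincter. The drug is used in rodents to lower tear production and dry the ocular surface. The eyeball libraries hold RNA of cornea, lens, iris, retina, pigment epithelium and sclera together with whatever conjunctiva, muscle or fat stayed attached.

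Library totals were 39.1, 64.6 and 56.5 M reads in CON and 51.6, 53.2 and 39.5 M reads in DES. Every pair of libraries differed by more than sampling noise, the closest being CON 1 and CON 3, with a chi-square of 34.3 for each degree of freedom. Of 47 marker genes fixed for 18 cell types, 42 were tested, and Mip, Spdef, Mog, Adipoq and Plin1 were not analysed here. Rod, corneal epithelial, keratocyte, Müller glia and pigment epithelial markers were present in all 6 libraries. Lens markers were not: Cryaa, which encodes the alpha-A crystallin of lens fibres, stood at 0.261, 12.7 and 0.268 CPM in CON and at 28000, 154 and 20100 CPM in DES. CPM are read counts scaled to the size of each library. Thus, the lens marker was near 0 in CON 1 and CON 3 and was low in DES 2, although the tissue is labelled eyeball for all. The libraries also differed in how much cornea they held against retina. The ratio of summed corneal epithelial to summed rod gene counts was 4.03 in CON 2 and 2.74 in DES 1, and lay between 0.508 and 0.895 in the other 4 CON and DES libraries. Principal component 1, which took 41.1% of the variance over all 9 libraries, held CON 2 and DES 1 on one side and the other 4 CON and DES libraries on the other side. The alga-fed library 1 had a ratio of 4.16, so values are also given without it, CON 2 and DES 1, which are called the cornea-rich libraries.

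**Figure D1:**
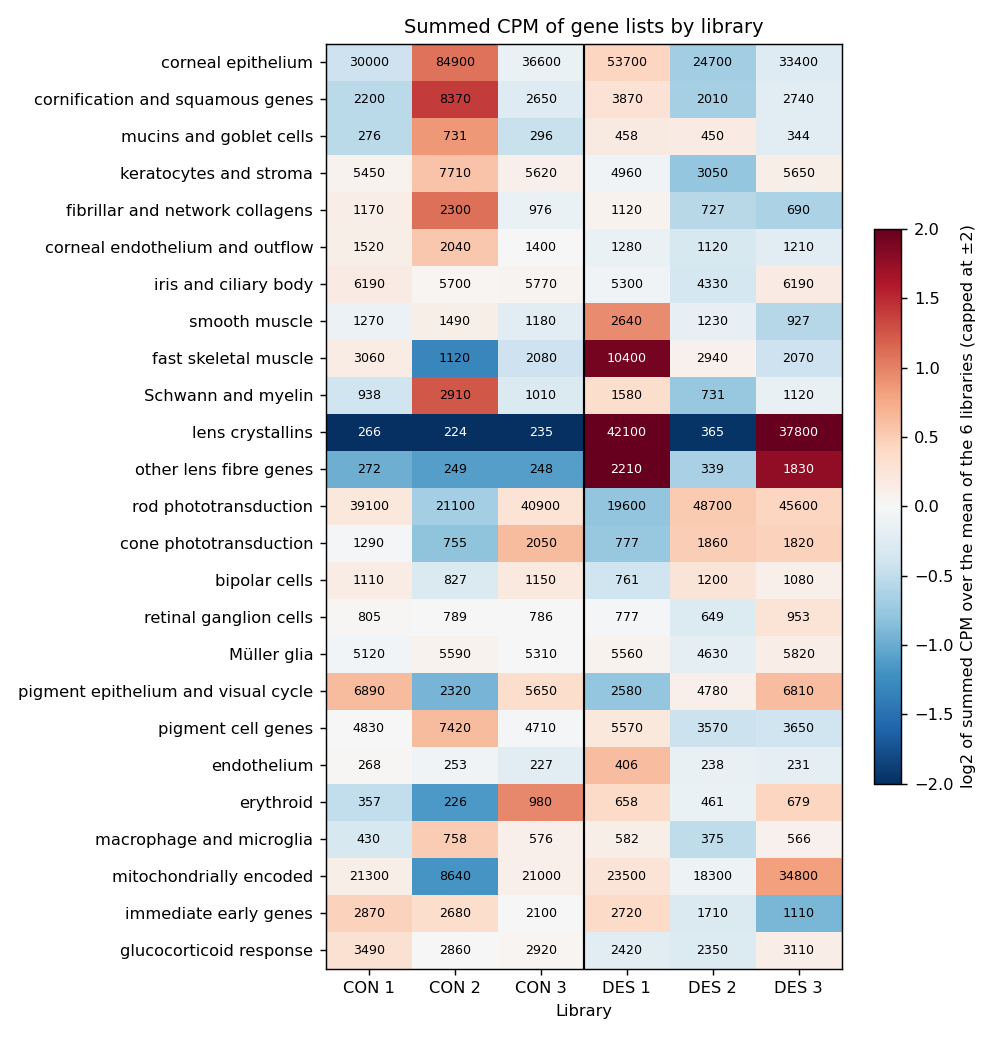
Summed CPM of 25 gene lists (rows, the number in each cell) in the 6 libraries (columns), coloured by the log2 ratio to the mean log2 level of the 6 libraries. Corneal epithelial genes were highest in CON 2 (84900 CPM) and DES 1 (53700 CPM), where rod genes were lowest (21100 and 19600 CPM), and lens genes were high in DES 1 and DES 3 alone.

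Scopolamine and control libraries were first compared gene by gene. Of 21287 genes tested, 0 (0.0%) passed an adjusted p of 0.05 by limma-voom, the smallest adjusted p being 1.0. At an unadjusted p under 0.05 there were 235 genes (1.1%), of which 127 (0.597%) were higher and 108 (0.507%) were lower in DES. That 1.1% is below the share of 0.05 that this level gives when no gene differs. The values of the 3 DES libraries lay wholly above or below those of the 3 CON libraries for 778 genes (3.65%), of which 426 (2.0%) were higher and 352 (1.65%) were lower. Groups of 3 also separate often when labels carry no difference, so separation alone is no evidence of a change. The mean log2 change was above 0 for 47.6% of all genes, and its median was -0.016. Since no gene passed the test, "higher" and "lower" below describe the values of these 6 libraries. In such bulk RNA, fewer cells of a type and less RNA per cell cannot be told apart.

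Single libraries stood at the ends of these differences more often than over all genes. Among the 352 genes lower in every DES library, CON 2 was the highest CON library for 229 (65.1%), against 45.0% of all genes tested. Among the 426 genes higher in every DES library, CON 2 was the lowest CON library for 248 (58.2%, against 41.9% of all genes), and DES 2 was the lowest DES library for 178 (41.8%, against 32.2%). Without the cornea-rich libraries, the median size of the log2 change went from 0.62 to 0.47 for the 426 higher genes and from 0.56 to 0.48 for the 352 lower genes. The part of tissue composition in these differences was not tested.

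The genes with the smallest p that were lower in DES included Angptl7, Igfbp2 and Fst. Angptl7, an angiopoietin-like protein secreted by corneal stroma and outflow tissue (chromosome 4, 148495181 to 148500462, GRCm38.p6), stood at 286, 604 and 211 CPM in CON and at 85.3, 79.7 and 113 CPM in DES. Igfbp2, which binds insulin-like growth factors, stood at 414, 1700 and 519 CPM in CON and at 234, 223 and 253 CPM in DES. Fst, which encodes the activin antagonist follistatin, stood at 34.8, 114 and 39.7 CPM in CON and at 15.4, 14.3 and 19.6 CPM in DES. Separation of the groups was a condition for naming these genes, and is not a result about them. Their DES libraries were close together. The log2 change was -1.85 ± 0.51 (SE) for Angptl7, -1.58 ± 0.53 for Igfbp2 and -1.74 ± 0.48 for Fst. CON 2 was the highest library for all 3, and without the cornea-rich libraries the changes were -1.39, -0.97 and -1.18.

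Fgf10, a growth factor that drives budding of the lacrimal gland and other epithelia, stood at 15.3, 51.6 and 21 CPM in CON and at 7.1, 9.72 and 10.5 CPM in DES. Srpx2, a secreted sushi-repeat protein, stood at 17.1, 50.2 and 22.6 CPM in CON and at 11.5, 11.9 and 10.9 CPM in DES. Masp1, a protease that starts the lectin pathway of complement, stood at 5.01, 13.1 and 3.41 CPM in CON and at 1.97, 1.4 and 1.9 CPM in DES. These genes were named under the same condition, and CON 2 was again at the top. Without the cornea-rich libraries the log2 change went from -1.53 to -0.85 for Fgf10 and from -1.24 to -0.80 for Srpx2. Pou3f3, a POU-domain transcription factor, stood at 4.53, 7.8 and 5.02 CPM in CON and at 1.68, 2.97 and 2.43 CPM in DES, a log2 change of -1.29 ± 0.36, and -0.83 without the cornea-rich libraries. Zfp335, a zinc finger transcription factor (chromosome 2, 164891882 to 164912585), was the gene among these 12 whose CON libraries were closest together, at 15.1, 14.8 and 15.1 CPM, against 6.52, 5.86 and 12.1 CPM in DES. Its log2 change was -0.99 ± 0.30, and -0.90 without the cornea-rich libraries.

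**Figure D2:**
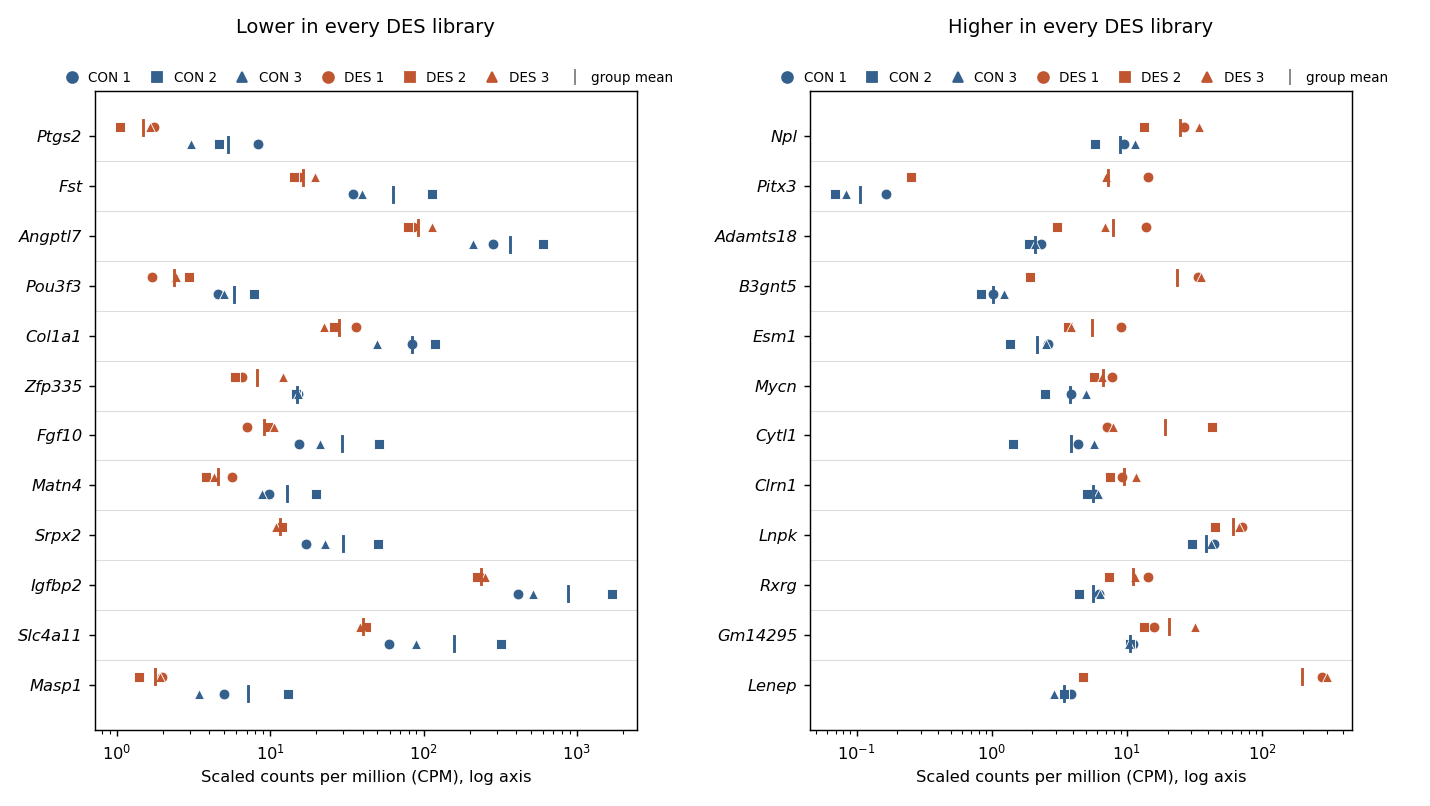
CPM (log axis) of the 12 genes with the smallest p in each direction among protein-coding genes outside the lens lists whose groups do not overlap, with a point per library and a bar at each group mean. CON 2 (blue square) was the highest CON library for 10 of the 12 lower genes, and DES 2 (orange square) was the lowest DES library for 11 of the 12 higher genes.

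Matrix genes of cornea and sclera were mostly lower in DES, though none passed the adjusted test. Fibrillar and network collagens had 18 of 23 tested genes lower, 7 of them in every DES library (against 1.65% of all genes), and a median log2 change of -0.45, against -0.016 over all genes. Col1a1, the alpha 1 chain of type I collagen, the main collagen of stroma and sclera, stood at 83.6, 119 and 49.7 CPM in CON and at 36.2, 26 and 22.4 CPM in DES. Its partner chain Col1a2 stood at 231, 536 and 206 CPM in CON and at 159, 117 and 99.7 CPM in DES. Both chains of the type I collagen molecule thus had all DES libraries below all CON libraries. Col6a1, a chain of the beaded filaments around fibres, stood at 69.5, 178 and 57.1 CPM in CON and at 42.8, 45.1 and 26.4 CPM in DES, and Col12a1, a collagen on the surface of fibrils, at 67.3, 162 and 77 CPM and at 50.1, 38.7 and 43 CPM. Without the cornea-rich libraries the median of the collagen list was -0.47 and 19 of 23 genes were lower.

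Keratocyte and stroma genes had 13 of 17 tested genes lower, 4 in every DES library (against 1.65% of all genes), with a median of -0.47. Kera, which encodes the stromal proteoglycan keratocan, stood at 264, 733 and 253 CPM in CON and at 131, 117 and 230 CPM in DES. Its DES libraries were all below CON, DES 3 narrowly, and the log2 change went from -1.25 ± 0.68 to -0.66 without the cornea-rich libraries. Thbs4 and Thbs1, matricellular thrombospondins, were lower in every DES library, with log2 changes of -0.85 ± 0.33 and -0.59 ± 0.26. Dcn, the proteoglycan decorin, overlapped, at 2580, 3010 and 2830 CPM in CON and 2050, 1360 and 2880 CPM in DES. Elastic fibre and glycoprotein genes had 21 of 24 lower (median -0.28). Among them Matn4, a matrilin that bridges matrix fibres, stood at 9.87, 20 and 8.84 CPM in CON and at 5.6, 3.79 and 4.28 CPM in DES, and Fbln5, which organises elastic fibres, had a log2 change of -0.79 ± 0.35. Matrix proteases and their inhibitors had 21 of 27 lower (median -0.30), including the gelatinase Mmp2 at 65.6, 208 and 82.8 CPM in CON and 57.1, 49.5 and 33 CPM in DES. Mmp3, the stromelysin often measured in dry eye and named after its values were seen, stood at 158, 221 and 197 CPM in CON and at 87.2, 56.7 and 162 CPM in DES, where DES 3 overlapped with CON. The summed level of the collagen list was highest in CON 2, at 2300 CPM against 690 to 1170 CPM in the other 5 libraries.

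**Figure D3:**
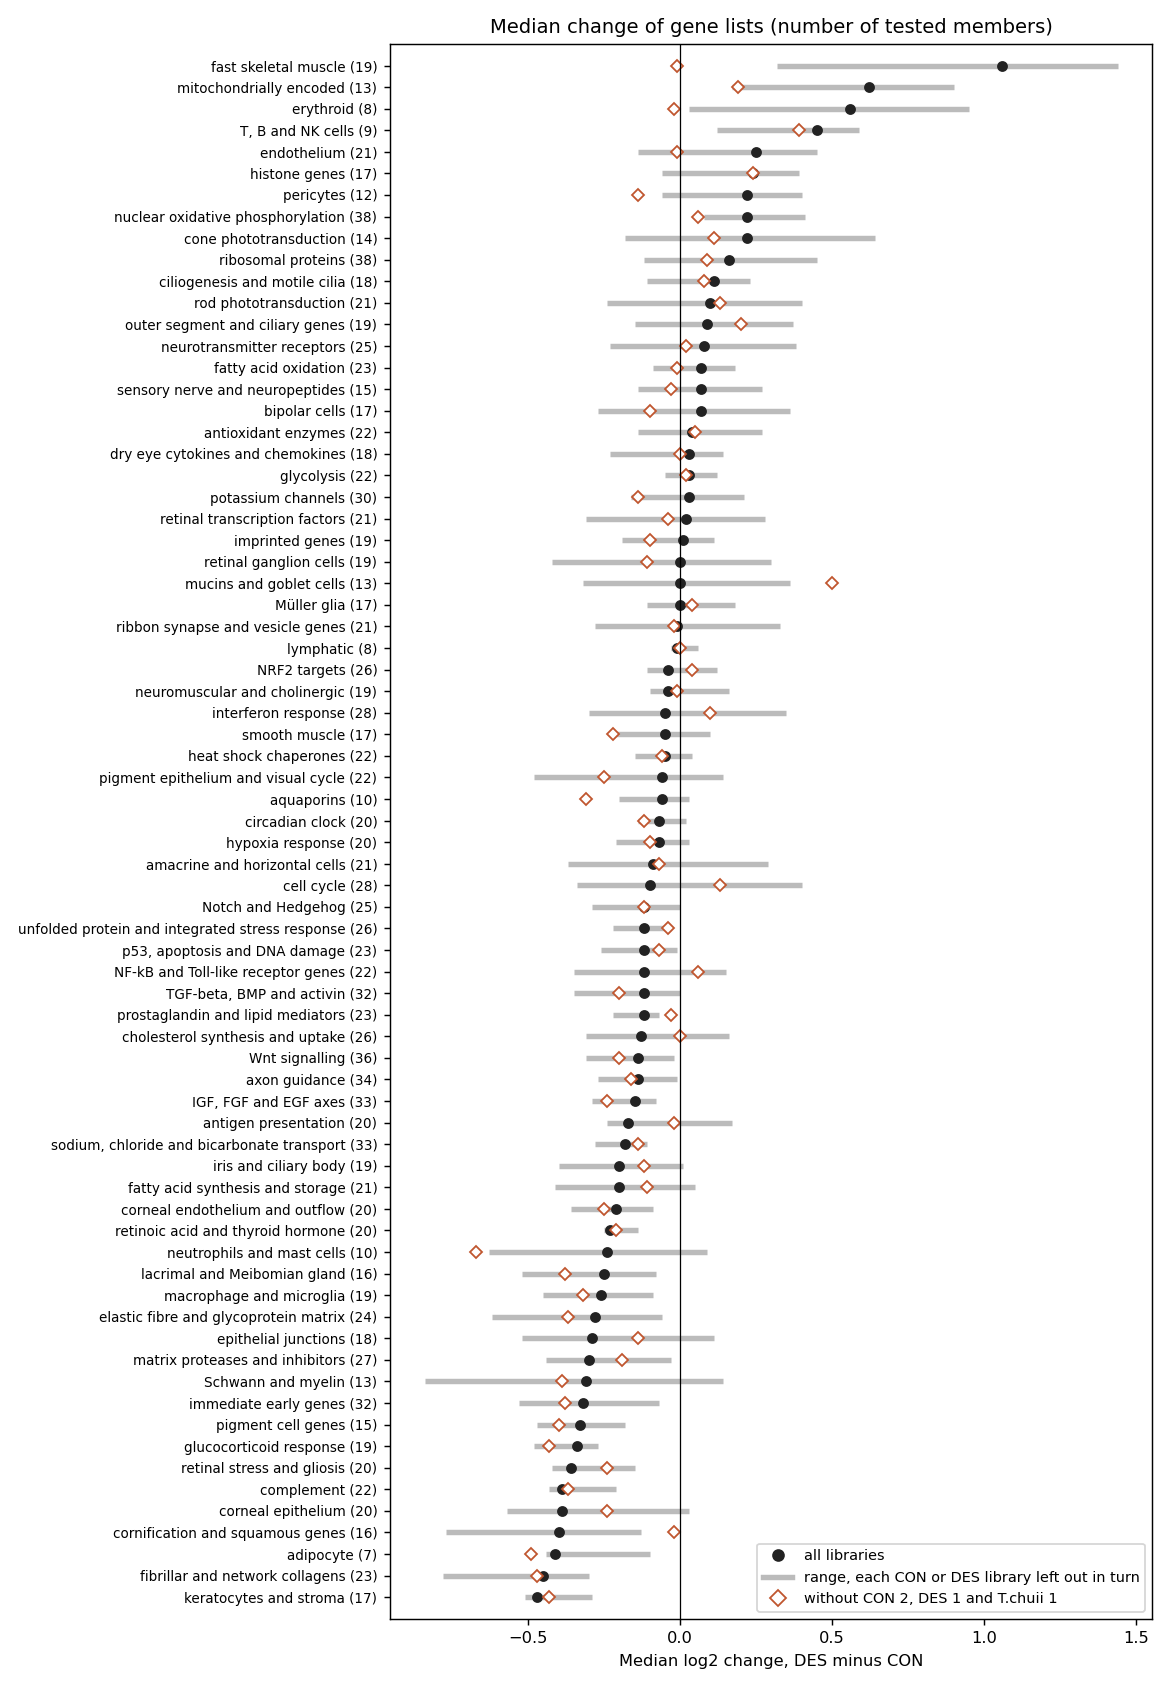
Median log2 change (DES minus CON) of each gene list outside the lens, with all libraries (black), without the cornea-rich libraries (open diamonds) and the range when each CON or DES library is left out in turn (grey bars). Stroma, collagen, complement, glucocorticoid and immediate early lists had all of these values under 0, while the skeletal muscle median went from 1.06 to -0.01 without the cornea-rich libraries.

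Of the 74 lists, 46 had a median under 0 and 25 a median over 0, and 14 had the other sign without the cornea-rich libraries. When each CON or DES library was left out in turn, 43 lists gave medians on both sides of 0, 22 stayed under 0 and 7 stayed over 0. The 7 were both lens lists, skeletal muscle, erythroid genes, T, B and NK cell genes, and the nuclear and mitochondrial oxidative phosphorylation genes.

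Ptgs2, which encodes the inducible cyclooxygenase that makes prostaglandins (chromosome 1, 150100031 to 150108234), had the smallest p of the 12 lower genes. It stood at 8.3, 4.63 and 3.02 CPM in CON and at 1.75, 1.04 and 1.63 CPM in DES, a log2 change of -1.74 ± 0.46. CON 2 was not its highest library, and its change without the cornea-rich libraries was -1.93. The prostaglandin and lipid mediator list, which holds Ptgs2, had 18 of 23 genes lower and a median of -0.12. Ptger3, a receptor for prostaglandin E2, stood at 1.19, 4.03 and 1.69 CPM in CON and at 1.1, 1.04 and 0.883 CPM in DES. Its log2 change was -0.57 without the cornea-rich libraries, and larger in size with them. The constitutive cyclooxygenase Ptgs1 overlapped, at 18.9, 34.8 and 21.2 CPM in CON and 33.6, 19.9 and 19.7 CPM in DES, as did the microsomal prostaglandin E synthase Ptges, at 29.2, 36.1 and 25 CPM and 28.6, 22.9 and 23.4 CPM.

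Immediate early genes, which are transcribed within minutes of a stimulus without new protein, had 26 of 32 members lower, with a median of -0.32. Of the 32, 3 were lower at an unadjusted p under 0.05 (against 0.507% of all genes) and 1 was lower in every DES library (against 1.65%). Leaving out CON 1 brought the median to -0.07. The summed level overlapped, at 2870, 2680 and 2100 CPM in CON and 2720, 1710 and 1110 CPM in DES. Egr2, a zinc finger factor of this class that also acts in Schwann cells, stood at 2.44, 1.17 and 1.98 CPM in CON and at 1.14, 0.303 and 0.359 CPM in DES. The groups did not overlap, and the log2 change was -1.80 ± 0.75, and -2.71 without the cornea-rich libraries. Dusp1, a phosphatase that switches off MAP kinases, and Fos, a subunit of the AP-1 factor, were chosen after their values were seen. Dusp1 stood at 339, 113 and 235 CPM in CON and at 130, 151 and 51.6 CPM in DES, and Fos at 320, 39.2 and 203 CPM in CON and 146, 129 and 34.6 CPM in DES. In both genes CON 1 and CON 3 were above every DES library, whereas CON 2, the cornea-rich control, lay below DES 1 and DES 2. Their log2 changes were -1.07 ± 0.48 and -0.68 ± 0.78, and -1.71 and -1.96 without the cornea-rich libraries. Egr1, another zinc finger factor of the class, overlapped and ranged widely, at 213, 17.9 and 96.8 CPM in CON and 193, 80.2 and 14.7 CPM in DES.

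The promoters of Dusp1 and Fos are shown because most members of the list had a log2 change under 0 and many share sequence letters that the list did not use. Each run is the 250 bases before the only annotated start of the gene, from RefSeq on GRCm38.p6, written 5' to 3' on the strand of the gene. Capitals mark TGACG, the core of the cAMP response element, on either strand, or the full element TGACGTCA, which contains the core on both strands.
Dusp1 (chr17:26508473-26508722, minus strand): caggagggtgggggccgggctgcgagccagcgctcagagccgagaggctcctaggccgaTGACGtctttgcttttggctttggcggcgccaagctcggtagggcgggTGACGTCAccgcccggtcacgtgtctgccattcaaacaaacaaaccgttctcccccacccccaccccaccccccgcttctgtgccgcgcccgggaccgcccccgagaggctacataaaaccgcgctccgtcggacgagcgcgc
Fos (chr12:85473640-85473889, plus strand): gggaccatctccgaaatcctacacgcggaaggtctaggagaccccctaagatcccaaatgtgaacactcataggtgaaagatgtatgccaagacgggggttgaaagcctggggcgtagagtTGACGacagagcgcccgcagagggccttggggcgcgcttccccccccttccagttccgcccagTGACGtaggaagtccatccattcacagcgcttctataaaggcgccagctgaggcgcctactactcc
Both strands were searched in the 15220 tested genes that had such a window. A gene with several annotated starts has a window at each (at most 10) and was counted where any of them held the motif, which favours genes with many starts. TGACG was found in 16 of 26 immediate early promoters (61.5%) and in 26.4% of all promoters, or in 59.4% and 22.7% of single windows. TGACGTCA was found in 3 of 26 (Btg2, Dusp1 and Maff) against 2.52% of all, and the CArG box, which serum response factor binds, in 3 of 26 (Dusp5, Egr2 and Zfp36) against 1.5%. Heat shock chaperones, whose median was -0.05, held TGACG in 10 of 17 promoters (58.8%). A match is a run of letters and does not show a site in use.

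Genes induced by glucocorticoids, the stress hormones of the adrenal gland, had 17 of 19 members lower and a median of -0.34, and -0.43 without the cornea-rich libraries. Fkbp5, a chaperone of the hormone receptor and named after its values were seen, stood at 58.3, 85.5 and 29 CPM in CON and at 19.1, 22.7 and 32.1 CPM in DES. CON 3 and DES 3 overlapped, and the log2 change was -1.14 ± 0.36, and -0.63 without the cornea-rich libraries. Glul, glutamine synthetase, stood at 421, 528 and 521 CPM in CON and at 415, 402 and 389 CPM in DES, a separation of groups with a log2 change of only -0.28 ± 0.20. Tsc22d3, the leucine zipper GILZ, overlapped, at 274, 306 and 214 CPM in CON and 156, 124 and 262 CPM in DES. The core TGACG stood in 7 of 17 promoters of the list (41.2%, against 26.4% of all), or in 29.6% of single windows against 22.7%. AGAACA, an arm of the glucocorticoid response element, stood in 3 of 17 (17.6%), against 14.4% of all promoters. Dusp1 belongs to both lists.

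**Figure D4:**
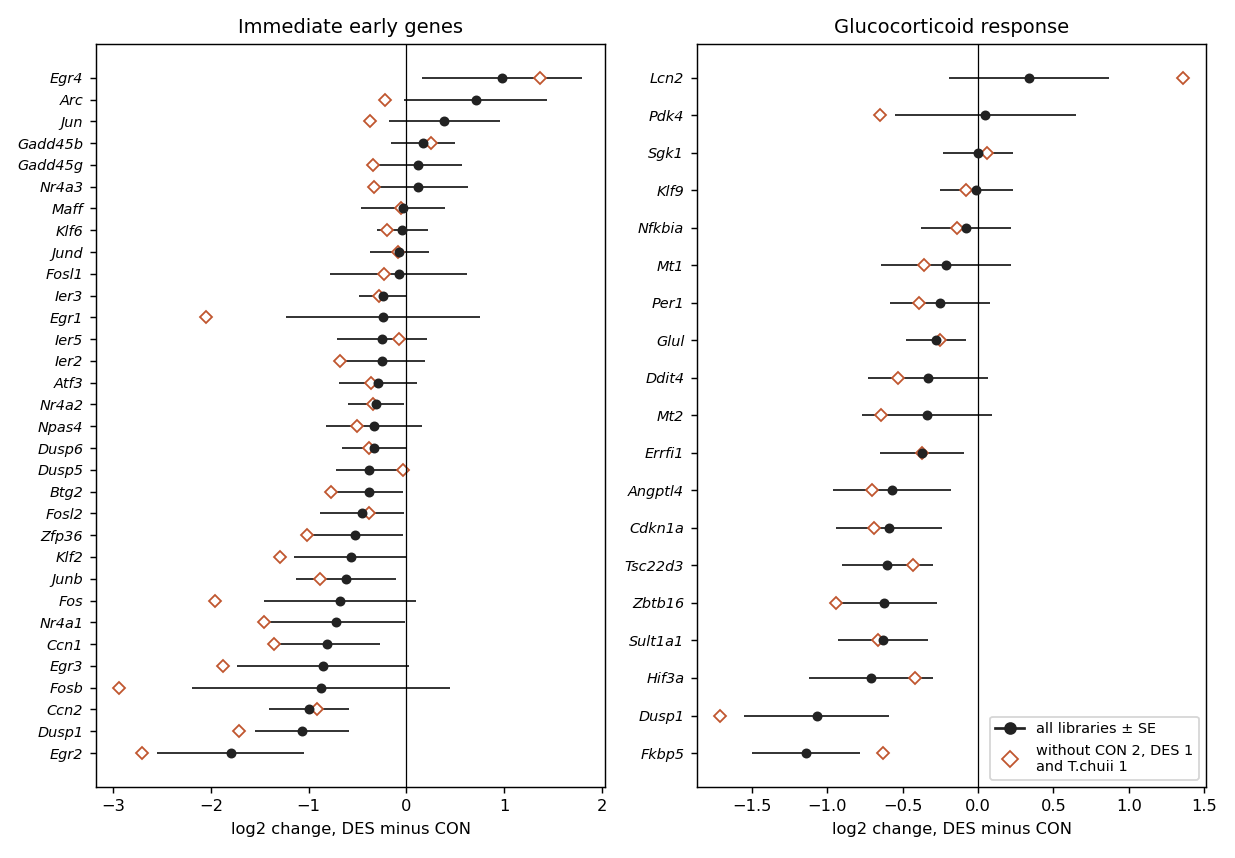
Log2 change (DES minus CON, ± SE) of the immediate early genes (left) and the glucocorticoid response genes (right), with the value without the cornea-rich libraries as open diamonds. Most members lie left of 0, with Egr2 at -1.80 and Fkbp5 at -1.14, and no member passed the adjusted test.

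The receptors that scopolamine blocks were examined next. Chrm4, one of the muscarinic receptors (chromosome 2, 91922189 to 91929835), stood at 0.593, 0.861 and 0.369 CPM in CON and at 0.321, 0.219 and 0.0828 CPM in DES. The groups did not overlap, at a level of under 1 CPM, and the log2 change was -1.56 ± 0.66. Chrm3, the receptor that drives gland secretion and pupil constriction, stood at 2.11, 1.22 and 1.58 CPM in CON and at 1.4, 2.43 and 1.88 CPM in DES. Chrm2, a receptor that restrains transmitter release, stood at 9.66, 10.3 and 11 CPM in CON and at 8.06, 13.3 and 7.45 CPM in DES. Chrm1, a receptor mainly of neurons, stood at 1.9, 3.36 and 1.96 CPM in CON and at 2.55, 2.14 and 1.85 CPM in DES. The groups thus overlapped for the 3 other muscarinic receptors tested. Bche, the cholinesterase of plasma and glia, was higher in every DES library, at 2.3, 2.69 and 2.35 CPM in CON and 3.85, 2.98 and 4.09 CPM in DES, a log2 change of 0.55 ± 0.28, also without the cornea-rich libraries. Ache, the synaptic cholinesterase, overlapped, at 31.2, 24.3 and 30.1 CPM in CON and 22.4, 34.5 and 26.9 CPM in DES. Chat, which makes acetylcholine, overlapped too, at 4.1, 3.08 and 4.5 CPM in CON and 1.87, 4.58 and 5.6 CPM in DES. Of the 19 cholinergic and neuromuscular genes tested, 9 were higher and 10 lower, with a median of -0.04. Chrna1, the muscle form of the nicotinic receptor, stood at 16.2 CPM in DES 1 and at 1.35 to 3.47 CPM in the other 5 libraries, and DES 1 was also the library with the most skeletal muscle RNA.

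For a few water and ion transport genes the groups did not overlap, as for 3.65% of all genes. Aqp1, the water channel of corneal endothelium, ciliary epithelium and vessels, stood at 73.9, 124 and 53.3 CPM in CON and at 51, 43.9 and 50.2 CPM in DES. Aqp11, an aquaporin of intracellular membranes, stood at 6.22, 4.03 and 6.06 CPM in CON and at 6.52, 6.93 and 7.95 CPM in DES. The groups did not overlap for either, in opposite directions, with log2 changes of -0.71 ± 0.32 for Aqp1 and 0.41 ± 0.26 for Aqp11, and of -0.43 and 0.25 without the cornea-rich libraries. Aqp5, the channel of corneal epithelium and lacrimal acini, overlapped, at 2450, 8060 and 2960 CPM in CON and 4230, 1620 and 2170 CPM in DES, and so did Aqp3 of epithelial membranes, at 909, 2500 and 1120 CPM and 1420, 771 and 856 CPM. For both of these epithelial channels the highest library of each group was its cornea-rich one. Of 10 aquaporins 5 were higher and 5 lower, and the median went from -0.06 to -0.31 without the cornea-rich libraries.

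Scnn1b, the beta subunit of the epithelial sodium channel (chromosome 7, 121865038 to 121918728), stood at 1.42, 4.65 and 1.63 CPM in CON and at 0.341, 1.03 and 0.552 CPM in DES. The groups did not overlap, and the log2 change was -1.91 ± 0.61, and -0.97 without the cornea-rich libraries. The alpha subunit Scnn1a overlapped, at 1.9, 5.15 and 1.51 CPM in CON and 2.05, 2.04 and 1.02 CPM in DES. Slc4a11, a membrane transporter that corneal endothelium needs to keep the cornea clear, stood at 59.9, 320 and 89.7 CPM in CON and at 40.5, 42.1 and 38.3 CPM in DES. Its DES libraries lay close together under every CON library, and the log2 change went from -1.56 ± 0.52 to -0.88 without the cornea-rich libraries. Of 33 sodium, chloride and bicarbonate transport genes, 22 were lower and 11 higher (median -0.18). Among 20 genes of corneal endothelium and outflow tissue, 13 were lower (median -0.21), and the adhesion protein Cdh2 was higher in every DES library, at 33.4, 30.8 and 33.6 CPM in CON and 39.8, 39 and 35.4 CPM in DES, with a log2 change of 0.23, and 0.14 without the cornea-rich libraries.

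At the ocular surface, the site of dry eye disease, no gene of the corneal epithelial, cornification or junction lists separated the groups. Over all genes 3.65% did, so 0 among 20, 16 and 18 tested genes is near that share. Corneal epithelial genes had 19 of 20 lower and a median of -0.39. Krt12, the keratin specific to corneal epithelium, stood at 11600, 33900 and 13500 CPM in CON and at 21100, 7790 and 12600 CPM in DES, so that the 2 cornea-rich libraries were the highest of their groups. Leaving out CON 2 brought the median of that list to 0.03, leaving out DES 1 to -0.57 and leaving out all cornea-rich libraries to -0.24. Cornification and squamous genes had 13 of 16 lower (median -0.40), and -0.02 without the cornea-rich libraries. The median of the epithelial junction list was -0.29, and -0.14 without these libraries.

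Goblet cell genes stood out in 1 library. Muc5ac, the gel-forming mucin of conjunctival goblet cells, stood at 2.37, 32 and 12.3 CPM in CON and at 1, 99.9 and 11.6 CPM in DES. Tff1, a trefoil peptide secreted with mucin, stood at 0.285, 3.86 and 2.57 CPM in CON and at 0.0802, 14.7 and 3.12 CPM in DES, and Muc5b, another gel-forming mucin, at 0.949, 5.75 and 1.31 CPM and at 0.943, 10.9 and 1.33 CPM. DES 2 was the highest and DES 1 the lowest of the 6 libraries for all 3 genes. The membrane mucin Muc4 of the corneal surface followed another order, at 72.5, 248 and 98.7 CPM in CON and 163, 114 and 93.8 CPM in DES. Of 13 mucin and goblet genes, 6 were higher and 7 lower, with a median of 0.00, and 0.50 without the cornea-rich libraries.

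Cytokines and chemokines of the dry eye list, of which 18 of 30 were tested, had 10 members higher and 8 lower (median 0.03). Il1b, the inflammatory interleukin 1 beta, was the 1 member of 18 that separated the groups, against 3.65% of all genes. It was lower, at 4.29, 2.76 and 2.23 CPM in CON and 2.09, 1.35 and 1.41 CPM in DES, a log2 change of -0.89 ± 0.56. Tnf overlapped, at 6.43, 9.97 and 1.95 CPM in CON and 3.51, 4.11 and 5.16 CPM in DES. The chemokine Cxcl5, which draws neutrophils, stood at 17.7 CPM in DES 2 and at 0.949 to 3.17 CPM in the other 5 libraries, and Ccl20, which draws T helper 17 cells, at 2.11 CPM in DES 2 and at 0.134 to 0.773 CPM in the others. DES 2 was thus highest for both chemokines and for the goblet cell mucins. Mmp9, the gelatinase measured in human tears in dry eye, overlapped, at 3.16, 3.15 and 3.96 CPM in CON and 1.28, 3.67 and 3.45 CPM in DES. Interferon response genes had 11 of 28 higher (median -0.05). Without the cornea-rich libraries 17 of 28 were higher (median 0.10). With the corneal to rod ratio as a covariate 23 of 28 were higher (median 0.20), and without CON 2 the median was 0.35.

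Gland genes were high in single libraries. Lyz1, a lysozyme of tear and mucosal fluids, was lower in every DES library, at 8.16, 6.42 and 14.3 CPM in CON and 6.18, 4.79 and 4.89 CPM in DES, and reads of it may be shared with the near-identical Lyz2. Awat2 and Far2, enzymes of Meibomian wax synthesis named after their values were seen, stood at 28.2 and 23.3 CPM in CON 3. In the other 5 libraries Awat2 lay between 0.682 and 1.71 CPM and Far2 between 3.63 and 4.73 CPM. Ltf, the tear protein lactoferrin, was highest in DES 2, at 48.6 CPM against 6.06 to 22.4 CPM. The lacrimal and Meibomian list had 11 of 16 lower (median -0.25).

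Complement genes had 17 of 22 lower and a median of -0.39, and -0.37 without the cornea-rich libraries. Of the 22, 3 were lower in every DES library (against 1.65% of all genes) and 1 was higher (against 2.0%). Beside Masp1, the lower genes that separated the groups were Cfb, a factor of the alternative pathway, at 6.03, 9.52 and 7.88 CPM in CON and 5.44, 5.56 and 4.69 CPM in DES, and C5ar1, the receptor of the C5a fragment, at 4.72, 2.76 and 2.45 CPM and 2.39, 2.04 and 2.21 CPM. Cd55, which protects cells by dismantling the convertases, was higher in every DES library, at 15, 16.2 and 13.9 CPM in CON and 19.7, 16.9 and 19.5 CPM in DES. Macrophage and microglia genes had 17 of 19 lower (median -0.26), with Csf1r, the receptor these cells need to survive, at 21.4, 27.4 and 21 CPM in CON and 18.6, 18.3 and 14.5 CPM in DES. Cd163, a scavenger receptor of resident macrophages, stood at 2.16, 2.01 and 2.52 CPM in CON and at 1.75, 1.62 and 1.57 CPM in DES. Both macrophage genes separated the groups by small changes, of -0.43 ± 0.21 and -0.43 ± 0.27. They were the 2 of 19 members lower in every DES library, against 1.65% of all genes. Of 22 NF-kB and Toll-like receptor genes, 19 were lower, with a median of -0.12 and of 0.06 without the cornea-rich libraries. T, B and NK cell genes, of which 9 of 23 were tested, had 8 of 9 higher (median 0.45). Most of them had means under 1 CPM in both groups, such as Cd4 at 0.244 in CON and 0.248 in DES. Trac, a T cell receptor chain, was lower (-0.24 ± 0.32). Igkc, the kappa light chain of antibodies, stood at 0.285, 1.03 and 0.486 CPM in CON and 8.32, 0.371 and 4.5 CPM in DES.

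Of 33 genes of the IGF, FGF and EGF axes, 21 were lower (median -0.15), and 3 of 33 were lower in every DES library (Fgf10, Igfbp2 and Fgf1), against 1.65% of all genes. Fgf1, an acidic fibroblast growth factor, stood at 31.6, 35.3 and 26 CPM in CON and at 21.7, 24.5 and 21.8 CPM in DES. Of 36 Wnt genes, 24 were lower (median -0.14), and 2 of 36 were lower in every DES library. The ligand Wnt5a stood at 32.1, 74.5 and 34.5 CPM in CON and 26.9, 20.5 and 19.5 CPM in DES. The Wnt antagonist Dkk2 stood at 25.6, 60.3 and 25.7 CPM in CON and at 22.6, 15.5 and 17.9 CPM in DES. For Fgf1, Wnt5a and Dkk2 the groups did not overlap and CON 2 was the highest library. Gli2, the transcription factor of the Hedgehog pathway, was also lower in every DES library, with a log2 change of -0.57 ± 0.32. Of 20 retinoic acid and thyroid hormone genes, 16 were lower (median -0.23), and Cyp26a1, which degrades retinoic acid, stood at 9.23, 5.6 and 7.05 CPM in CON and at 20.3, 9.12 and 10.9 CPM in DES, where DES 2 overlapped.

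Lens crystallins had the smallest p among genes higher in DES, such as Cryaa (unadjusted p 0.000118 by limma-voom). The 12 genes described next were taken from outside the lens lists and had to be higher in every DES library. Of these, Pitx3, B3gnt5 and Lenep are given below with the lens markers, and the others were of mixed kind. Npl, the lyase that degrades sialic acid (chromosome 1, 153503016 to 153549714), stood at 9.44, 5.84 and 11.4 CPM in CON and at 26.4, 13.4 and 34.4 CPM in DES, a log2 change of 1.40 ± 0.39. Adamts18, a secreted metalloprotease, stood at 2.3, 1.88 and 2.1 CPM in CON and at 13.9, 3.03 and 6.85 CPM in DES. Esm1, a proteoglycan of activated endothelium, stood at 2.61, 1.36 and 2.5 CPM in CON and at 9.11, 3.69 and 3.84 CPM in DES. DES 2 was the lowest DES library for all 3 and lay nearest to the controls. Mycn, a growth-promoting transcription factor, stood at 3.87, 2.48 and 5 CPM in CON and at 7.78, 5.68 and 6.52 CPM in DES. Rxrg, a retinoid receptor of cones, stood at 6.24, 4.41 and 6.29 CPM in CON and at 14.3, 7.42 and 11.4 CPM in DES. Clrn1, a membrane protein mutated in a form of Usher syndrome, stood at 5.79, 5.06 and 6.14 CPM in CON and at 9.13, 7.52 and 11.7 CPM in DES, a log2 change of 0.70 ± 0.27. Here too DES 2 was the lowest DES library and CON 2 the lowest control. Lnpk, which shapes the endoplasmic reticulum, had a log2 change of 0.65 ± 0.25, and 0.35 without the cornea-rich libraries. Gm14295, a predicted gene whose reads may be shared with near-identical copies, had one of 0.80 ± 0.33. Cytl1, a secreted cytokine-like protein, was the exception, with DES 2 its highest library, at 4.37, 1.43 and 5.74 CPM in CON and 7.08, 42.6 and 7.9 CPM in DES. Without the cornea-rich libraries the log2 change went from 1.30 to 0.55 for Esm1, from 0.86 to 0.43 for Mycn and from 0.92 to 0.51 for Rxrg. Adamts18 went from 1.64 to 0.98. Without them the median size of the log2 change went from 1.35 to 0.94 for the 12 higher genes and from 1.54 to 1.07 for the 12 lower genes.

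A set of genes followed the lens markers, high in DES 1 and DES 3 and near the controls in DES 2. Pitx3, a homeobox factor needed for lens development, stood at 0.166, 0.0689 and 0.0839 CPM in CON and at 14.4, 0.253 and 7.01 CPM in DES. B3gnt5, a glycosyltransferase of glycosphingolipid synthesis, stood at 1.02, 0.827 and 1.24 CPM in CON and at 33.6, 1.92 and 35.2 CPM in DES. Lenep, a lens epithelial protein, stood at 3.87, 3.44 and 2.9 CPM in CON and at 279, 4.75 and 303 CPM in DES. Each DES library was above each control, by a narrow margin in DES 2. Cryab, a small heat shock protein of lens that other tissues also make, stood at 263, 200 and 230 CPM in CON and at 4930, 170 and 4960 CPM in DES, with DES 2 below all controls. With DES 2 left out, 15 genes passed an adjusted p of 0.05 by limma-voom, all of them higher in DES. Of these, 10 were in the lens lists, among them Cryaa, Grifin and Lim2, and the 5 others were Pitx3, B3gnt5, Lix1, R3hdml and Gm11578. Lix1 stood at 2.85, 2.29 and 2.35 CPM in CON and at 42, 1.67 and 42.6 CPM in DES, and R3hdml at 0.403, 0.637 and 0.503 CPM and at 43.4, 0.674 and 32.7 CPM. Leaving DES 2 out favours genes that differ between DES 2 and the other DES libraries.

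The promoter of Cryaa is shown because lens genes held the largest changes and share a motif that the list did not use. It is the 250 bases before the only annotated start, from RefSeq on GRCm38.p6, and the capitals mark TGCTGA, an arm of the recognition element of Maf factors, which regulate crystallins, searched on both strands.
Cryaa (chr17:31677681-31677930, plus strand): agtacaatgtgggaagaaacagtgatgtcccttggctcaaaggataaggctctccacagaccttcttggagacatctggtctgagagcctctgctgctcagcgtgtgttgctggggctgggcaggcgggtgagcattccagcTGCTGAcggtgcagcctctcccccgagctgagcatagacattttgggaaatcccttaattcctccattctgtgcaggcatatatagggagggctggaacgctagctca
Of 16 listed crystallin genes 6 were tested and 5 had a window. TGCTGA was found in the window of 5 of 5 crystallin genes (Cryaa, Cryba4, Crybb1, Crybb3 and Crygn) and of 3 of 7 other lens fibre genes, against 16.8% of all promoters. By single windows the other lens fibre genes held it in 27.3%, against 14.4% of all windows. Further motifs and lists were searched, and not all are given. No data of this study bear on factor binding.

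Genes of energy metabolism and protein synthesis were mostly higher in DES by small amounts. All 13 mitochondrially encoded genes were higher, with a median of 0.62, and 0.19 without the cornea-rich libraries. ND5, a subunit of complex I, stood at 1050, 566 and 1040 CPM in CON and at 1290, 1100 and 1650 CPM in DES and separated the groups, with a log2 change of 0.64, and 0.36 without the cornea-rich libraries. Nuclear-encoded oxidative phosphorylation genes had 35 of 38 higher, with a median of 0.22, and 0.06 without these libraries. Ribosomal protein genes had 32 of 38 higher (median 0.16), and histone genes had 14 of 17 higher (median 0.24 with and without the cornea-rich libraries). H3c6, which encodes a histone H3, stood at 0.498, 0.585 and 0.621 CPM in CON and at 0.842, 1.06 and 1.1 CPM in DES. In the ribosomal and histone lists the medians were -0.12 and -0.06 without DES 3, the library with the highest summed levels of both. The glycolytic enzyme Aldoc was higher in every DES library, at 358, 327 and 386 CPM in CON and 417, 408 and 499 CPM in DES, while the glycolysis list had 12 of 22 higher (median 0.03).

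Skeletal muscle genes had all 19 members higher with a median of 1.06, and DES 1 was the highest library, with a summed level of 10400 CPM against 1120 to 3060 CPM in the other 5 libraries. Without the cornea-rich libraries the median was -0.01. Erythroid genes had 8 of 8 higher (median 0.56), and -0.02 without the cornea-rich libraries. Their summed level was 357, 226 and 980 CPM in CON and 658, 461 and 679 CPM in DES, so both the lowest and the highest library were controls. Endothelial genes had 14 of 21 higher (median 0.25), and -0.01 without the cornea-rich libraries.

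In the retina, rod phototransduction genes had 15 of 21 higher (median 0.10) and cone genes 12 of 14 higher (median 0.22). Of the 21 rod genes 0 separated the groups, near the share of 3.65% over all genes. With the corneal to rod ratio as a covariate, 1 of 21 rod genes (median -0.13) and 4 of 14 cone genes (median -0.04) were higher, and without CON 2 the medians were -0.24 and -0.18. The ratio is built from the summed rod genes, so the fit with it takes out their own change and cannot show how rod genes changed. Bipolar, amacrine, ganglion cell and synapse lists had medians between -0.09 and 0.07. Prox1, a homeobox factor of horizontal cells and lymphatic vessels, was higher in every DES library, at 46, 20.4 and 47.5 CPM in CON and 53.6, 55.2 and 53.2 CPM in DES, and its log2 change went from 0.61 to 0.20 without the cornea-rich libraries. Rbpms, an RNA-binding protein that marks ganglion cells, was lower in every DES library, at 68.2, 67.3 and 54.4 CPM in CON and 48, 46.7 and 52.2 CPM in DES, a log2 change of -0.37 ± 0.18. Mertk, the receptor by which pigment epithelium takes up shed outer segments, stood at 16.1, 11.9 and 11.2 CPM in CON and at 10.2, 10.7 and 9.28 CPM in DES. The list of retinal stress and gliosis genes had 16 of 20 lower (median -0.36, and -0.24 without the cornea-rich libraries). Its summed level was 1850 CPM in CON 2 and 537 to 706 CPM in the other 5 libraries. Rod genes summed to 21100 CPM in CON 2, against 39100 and 40900 CPM in CON 1 and CON 3. Whether reads of this list came from retina was not tested. The protease inhibitor A2m stood at 259, 1090 and 202 CPM in CON and 104, 138 and 134 CPM in DES. Its log2 change was -1.62 ± 0.64, and -0.77 without the cornea-rich libraries. The intermediate filament Gfap overlapped, at 7.71, 28.9 and 12.1 CPM in CON and 7.72, 6.17 and 12.3 CPM in DES. Pigment cell genes had all 15 members lower (median -0.33, and -0.40 without the cornea-rich libraries). Of these 0 separated the groups, near the share of 3.65% over all genes. Pmel, a melanosome fibre protein that is still made in albino mice, stood at 787, 1780 and 957 CPM in CON and at 1080, 637 and 534 CPM in DES.

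Stress pathways other than the early and glucocorticoid genes had medians near that of all genes. NRF2 targets had 9 of 26 higher (median -0.04), heat shock chaperones 9 of 22 higher (median -0.05), clock genes 9 of 20 higher (median -0.07) and unfolded protein response genes 7 of 26 higher (median -0.12). Trib3, a pseudokinase of the integrated stress response, stood at 8.35, 25.7 and 10.2 CPM in CON and at 6.42, 7.2 and 8.31 CPM in DES, which narrowly separated the groups, and its log2 change went from -0.87 to -0.29 without the cornea-rich libraries. Stc2, a secreted glycoprotein induced by hypoxia, stood at 1.26, 2.81 and 1.02 CPM in CON and at 0.481, 0.843 and 0.442 CPM in DES, a log2 change of -1.41 ± 0.53, and -0.83 without the cornea-rich libraries. Fas, a death receptor and p53 target, was higher in every DES library, at 7.73, 5.67 and 6.07 CPM in CON and 20.6, 7.84 and 26.9 CPM in DES. Its split of DES libraries, with DES 1 and DES 3 high and DES 2 near the controls, was that of the lens markers. The potassium channel Kcnh2 stood at 13.2, 8.8 and 10.1 CPM in CON and at 14.3, 13.3 and 19.4 CPM in DES, and the channel Kcnj12 at 5.2, 3.44 and 4.68 CPM and at 20, 5.43 and 7.15 CPM. The log2 change of Kcnj12 went from 1.07 to 0.31 without the cornea-rich libraries. Car3, a carbonic anhydrase abundant in fat and muscle, was lower in every DES library, at 152, 223 and 189 CPM in CON and 72.8, 70.9 and 120 CPM in DES.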

How the data were processed

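Messenger RNA of whole eyeballs was sequenced with a stranded kit, per the labels' protocols. The submitters' processing notes name HISAT2 2.1.0, StringTie 2.1.3b, Bowtie2 2.3.4.1, Trimmomatic 0.38 and FastQC 0.11.7, and the build mm10. How and on which strand reads were counted is not stated there, so reads of antisense or near-identical genes may be divided between them. The authors deposited a read count and an FPKM value per gene and library, per the file headers, and both were taken from the last cells of a row. Each library listed 22587 genes and no count was under 1, so a gene switched on from 0 could not be seen.

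Groups came from the sample titles. Genes needed the CPM equivalent of 10 reads in a median library in at least 3 libraries, and 15 reads in total (21287 genes). Library scaling used trimmed means of M-values, by code written for this purpose, and limma-voom was applied to the counts (limma 3.58.1, R 4.3.3), with all 9 libraries in 1 fit, 6 residual degrees of freedom, two-sided, Benjamini-Hochberg adjusted. A quasi-likelihood count test had been the plan. It was not run, because rows with varying numbers of cells failed the test of the count unit by header position, and library quality weights stood in for a second count test. Tests were also run on simulated counts, drawn independently for each gene and library. These held no differences in tissue content, so that check does not cover such differences. Other steps used pandas 2.3.3 under Python 3.11.15, with matplotlib 3.10.9 for figures.

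The comparison, the 74 gene lists (1530 different genes, 1425 tested, 20 matched through RefSeq names), the rule for the genes named and the 18 alternative settings were chosen with earlier results of these data known. Named genes were the 12 with the smallest p in each direction among protein-coding genes outside the lens lists, with a mean of at least 5 CPM in the higher group and no overlap of groups. Of each list, up to 3 members with groups that do not overlap were added, or the 1 with the smallest p, and members of the cholinergic, cytokine, mucin and aquaporin lists and cell type markers whatever their values. Other genes named for comparison, such as partner chains or subunits, were chosen after their values were seen. Lists are described by counts and medians, with no set test. Replicate numbers were not taken to pair the libraries. Same-numbered CON and DES libraries had correlations of deviations of -0.382, -0.28 and 0.324, against 0.535 for the cornea-rich CON 2 and DES 1. These values cannot separate tissue content from a shared batch. Codes in the file headers carry other numbers (NTC1, NTC4 and NTC5 for CON, SCO1, SCO2 and SCO4 for DES), and which of them identifies a mouse is not known.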

Additional observations from a re-analysis of the deposited data

How the results depend on the processing

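The count of genes at an adjusted p of 0.05 by limma was 0 under each of the 18 other settings except without DES 2, so it ran from 0 to 15 when each CON or DES library was left out in turn. At an unadjusted p under 0.05 the leave-one-out counts ran from 154 (without CON 2) to 355 (without CON 3), against 235. The count was 368 with library quality weights, 148 with a filter of at least 1 CPM in 3 libraries, 587 with the corneal to rod ratio as a covariate and 471 without CON 2, DES 1 and the alga-fed library 1. With the replicate number as a block it was 355, although the numbers are not known to pair the libraries. The limma-trend, median-of-ratios, unfiltered, 6-library, FPKM and lens- and muscle-free fits gave 227 to 310. With FPKM, 37.7% of genes were higher in DES, against 47.6%. Of 1502 alternative values of 84 named genes, 1490 kept direction and side of the threshold, 12 passed it and 0 reversed. This says little about stability, because genes chosen for groups that do not overlap keep their direction when libraries are left out. Without the cornea-rich libraries, all 426 higher and all 352 lower genes of that kind kept it, against 15501 of 20951 over all genes. The 84 are not all the genes named here. Of 1328 list medians, 15 moved by more than the spread between libraries. That spread includes the differences in cornea, lens and muscle content, so large shifts can count as not moved. As given above, 43 of the 74 lists had medians on both sides of 0 when each CON or DES library was left out in turn. The cause of these shifts was not tested. Every pair of libraries differed by more than sampling noise.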
